A study of Mus musculus with 30 samples.

Results

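The 10 genes described here encode naive pluripotency transcription factors, namely Zfp42 (REX1), Prdm14, Esrrb, Klf2, Klf4, Klf5, Tfcp2l1, Tbx3, Nr0b1 (DAX1) and Nanog. They are a set given by gene name, with no threshold on a measured value, but were chosen with earlier results of these data known. They are 10 of the 55421 genes in the count table. All 10 passed the low-count filter that left 19868 genes for testing. Polyadenylated RNA was sequenced from mouse E14 embryonic stem cells, a male line of 129P2/Ola background derived from the blastocyst. The series compared acute loss of cofactors of cohesin, the ring complex that folds chromatin into loops. PDS5A and PDS5B and WAPL are cofactors that take part in releasing cohesin from chromatin, and NIPBL is the cofactor that activates loop extrusion.

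There were 30 libraries, 3 in each of 10 groups, from 5 lines that all express Tir1, the plant protein that directs a degron-tagged target to the proteasome once auxin is present. The TIR1 line carries Tir1 and no degron fusion. The PDS5AB line carries PDS5A-AID and PDS5B-AID, where AID is an auxin-inducible degron, and in the WAPL line WAPL-AID is the only fusion. The PDS5AB-NIPBL and WAPL-NIPBL lines, called combined lines here, carry the same AID fusions together with NIPBL-FKBP, a degron that responds to dTAG-13, and RAD21-Halo, a tag on a cohesin subunit. Each line was sampled without treatment and after 24 h. The TIR1, PDS5AB and WAPL lines received 500 µM auxin, and the combined lines received auxin with 500 nM dTAG-13. Every genotype is a single named cell line, so genotype and line cannot be told apart, and no line with NIPBL-FKBP alone was used here. The medium held serum, leukaemia inhibitory factor (LIF), the MEK inhibitor PD0325901 and the GSK3 inhibitor CHIR-99021 in all groups.

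Naive pluripotency is the state of the preimplantation epiblast, and a densely connected set of transcription factors maintains it in culture. LIF acts through STAT3, which activates Klf4 and Tfcp2l1. GSK3 inhibition relieves TCF7L1 repression of Esrrb, Klf2, Tfcp2l1 and Nanog, and MEK inhibition blocks the FGF-ERK signal that drives exit from the state. PRDM14 represses FGF signalling genes and DNA methyltransferases, TBX3 acts beside LIF signalling, NR0B1 is an orphan nuclear receptor that binds POU5F1, and Zfp42 is a widely used reporter of the naive state.

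In GRCm38 the genes lie at chr8:43295063-43306980 (Zfp42, minus strand), chr1:13113457-13127163 (Prdm14, minus), chr12:86361117-86521628 (Esrrb, plus), chr8:72319033-72321656 (Klf2, plus) and chr4:55527143-55532466 (Klf4, minus). The others lie at chr14:99298691-99315036 (Klf5, plus), chr1:118627945-118685168 (Tfcp2l1, plus), chr5:119670669-119684724 (Tbx3, plus), chrX:86191764-86195947 (Nr0b1, plus) and chr6:122707489-122714633 (Nanog, plus). Counts are over all annotated exons of each gene.

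Promoter sequence was matched in RefSeq (GRCm38.p6) for 7 of the 10 genes. No window for Prdm14, Klf5 or Tbx3 was used here. The 250 bases before the start are shown for 2 genes whose window holds the octamer letters read by POU5F1 (OCT4), Zfp42 and Nanog, and for Tfcp2l1, as an example of the 5 genes whose windows do not hold them (Tfcp2l1, Klf2, Klf4, Esrrb and Nr0b1). They lie at chr8:43307010-43307259 (minus strand) for Zfp42, chr6:122707239-122707488 (plus strand) for Nanog and chr1:118627695-118627944 (plus strand) for Tfcp2l1. Each is written in the direction of transcription, with TTTGCAT in capitals.
Zfp42: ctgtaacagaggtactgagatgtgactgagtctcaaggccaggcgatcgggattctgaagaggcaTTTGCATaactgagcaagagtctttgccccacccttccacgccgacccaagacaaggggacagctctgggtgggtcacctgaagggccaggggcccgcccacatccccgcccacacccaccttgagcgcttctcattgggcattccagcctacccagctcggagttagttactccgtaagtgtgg
Nanog: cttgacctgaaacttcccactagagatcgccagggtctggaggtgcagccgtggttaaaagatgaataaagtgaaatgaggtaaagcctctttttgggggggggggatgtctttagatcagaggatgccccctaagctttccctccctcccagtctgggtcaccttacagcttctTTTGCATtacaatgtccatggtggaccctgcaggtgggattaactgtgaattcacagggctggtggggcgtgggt
Tfcp2l1: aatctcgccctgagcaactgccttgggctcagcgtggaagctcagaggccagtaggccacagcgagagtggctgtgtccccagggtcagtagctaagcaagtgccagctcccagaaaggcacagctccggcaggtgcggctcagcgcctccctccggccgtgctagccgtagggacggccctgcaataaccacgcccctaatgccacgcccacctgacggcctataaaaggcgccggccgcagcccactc
TTTGCAT, searched on both strands, was found in 4.12% of 32851 promoter windows of the same length. In the PDS5AB line, described below, the log2 changes were -1.3 and -0.73 for the genes with these letters and ran from -0.21 (Tfcp2l1) to -1.08 (Nr0b1) for the 5 without, so the ranges overlapped. The match began 185 bases before the start in Zfp42 and 75 bases before it in Nanog. A further annotated Nanog window, chr6:122707315-122707564, holds the same site. The Sp1 and KLF-type letters GGGCGGG were found in 23.4% of all windows, with 4 matches in Klf4, 2 in Zfp42 and 2 in Klf2, and a pair of the Klf4 matches shared 2 bases. AAGGTCA, the letters read by ESRRB, was found in 4.08% of windows and the STAT letters TTCCNGGAA in 0.913%, and no window of the 7 matched genes held either. These are matches of letters within the window, and no match of one motif overlapped a match of another.

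Library totals ran from 19632704 to 45539021 fragments, and no member had fewer than 326 fragments in any library. The further embryonic stem cell markers Pou5f1, Sox2 and Sall4 were present in all 30 libraries, at no less than 506, 123 and 224 CPM (counts scaled to library size). The degrons act on protein, so transcript counts are no check of depletion. Library names fall into a set numbered 1 to 21, with both PDS5AB groups and untreated TIR1, and a set numbered 25 to 45 with all other groups. Set and group cannot be told apart in comparisons between the sets. These include every TIR1 treatment effect given below, whether or not this is repeated there. Other such comparisons are marked in the text. Nothing in the labels says that replicates are separate cultures, so p-values measure the spread between these libraries. In bulk RNA, fewer cells expressing a gene and less RNA per cell cannot be told apart.

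Some members have near copies or antisense partners in the annotation. The pseudogene Zfp42-ps1 on chromosome 15 held between 6.67% and 8.78% as many fragments as Zfp42. Multi-mapping reads were not counted, so fragments that fit both are in neither count, and how many were lost or misassigned was not measured. Its log2 change was close to that of Zfp42 in the PDS5AB line, at -1.31 (edgeR adjusted p = 9.74e-11). Nanog-ps1 and Nanog-ps2 held at most 0.12% and 0.00421% of the Nanog fragments. The antisense gene Tbx3os1 held at most 1.3% of the Tbx3 fragments, and counting ignored strand.

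Levels are compared between genes per kilobase of annotated exon, as CPM per kb. In untreated TIR1 cells Nanog was highest at 454 ± 23.2 CPM per kb (SD, n = 3), which placed it at percentile 99.57 of the tested genes. Zfp42 followed at 348 ± 29.6 and Klf2 at 212 ± 18.7 CPM per kb. Esrrb stood at 140 ± 2.7, Tfcp2l1 at 133 ± 3.0 and Klf4 at 91.4 ± 8.94 CPM per kb. Lower levels were seen for Tbx3 (52.5 ± 1.85 CPM per kb), Klf5 (42.6 ± 1.79) and Nr0b1 (42.6 ± 4.19), and Prdm14 was lowest at 20.2 ± 0.817 CPM per kb. Klf5 and Nr0b1 are the neighbours in this order whose levels did not differ beyond their spread. Nanog ranked highest and Prdm14 lowest of the members in all 10 groups, whereas Zfp42 was next to Nanog in 9 groups and fell behind Klf2 in treated WAPL-NIPBL cells. Tbx3 ranked between 6 and 9, the widest range of the 10 genes, and Klf4 between 5 and 7.

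**Figure D1:**
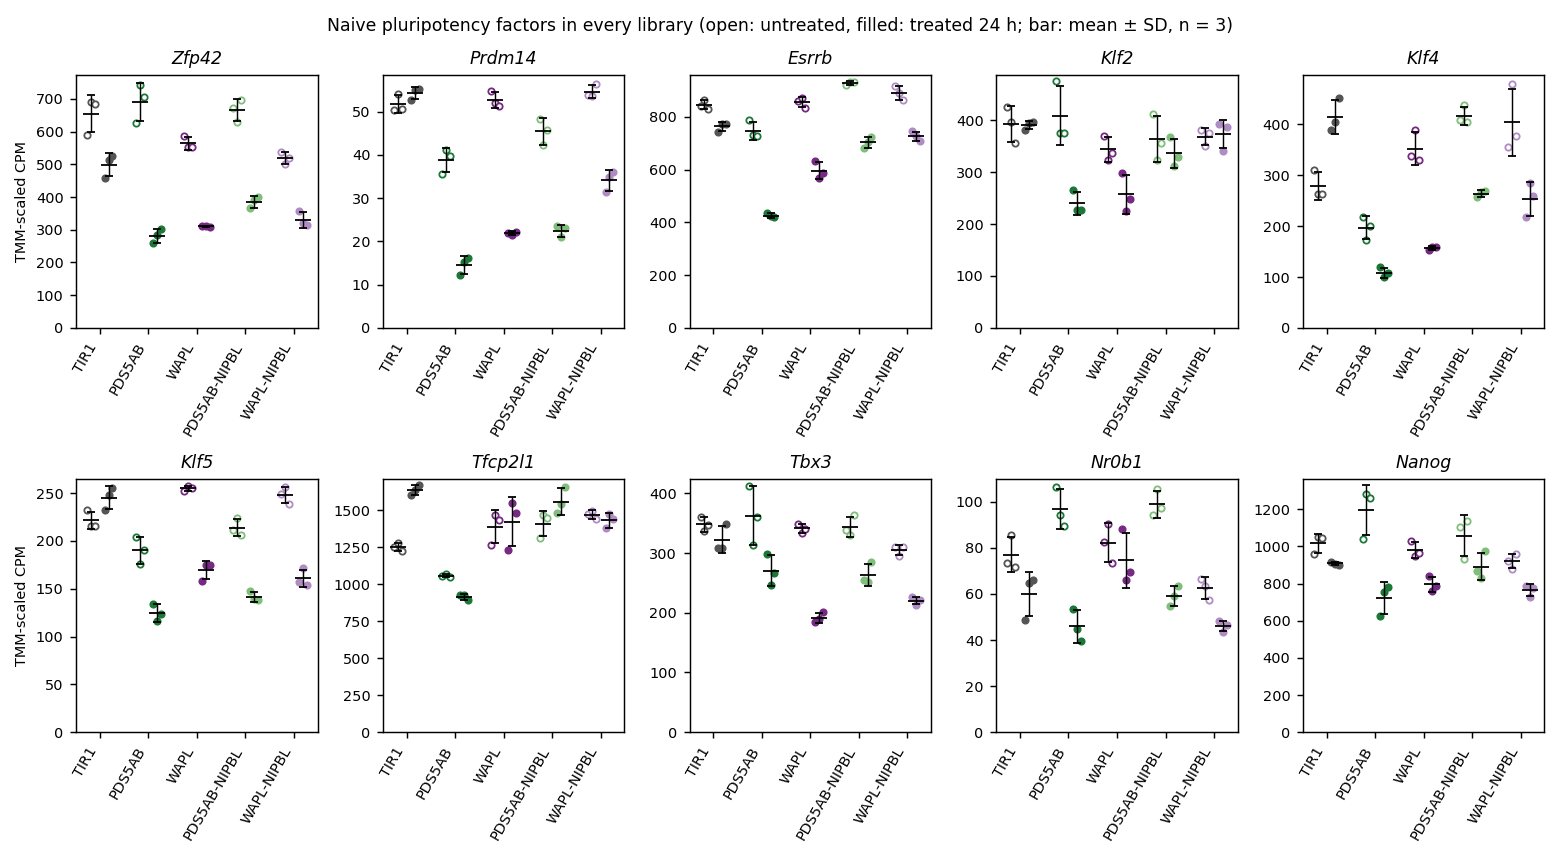
TMM-scaled CPM of each of the 10 genes in every library (y axis, linear from 0, own scale per gene) by line (x axis), with open points untreated, filled points treated for 24 h, and bars the mean ± SD (n = 3). All filled PDS5AB points sit below the open ones in every panel, while in TIR1 cells Klf4 and Tfcp2l1 are higher after treatment.

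The plot of every library shows the values behind the comparisons that follow, each made with edgeR's quasi-likelihood test and Benjamini-Hochberg adjustment over the 19868 genes, with a gene called at an adjusted p under 0.05. Fold changes are log2 values of treated over untreated.

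Members moved in both directions in the TIR1 line, which has no degron fusion. There 3 members fell and 2 rose, where 19.9% of all tested genes were called (9.59% lower, 10.4% higher). Klf4, the LIF-responsive reprogramming factor, stood at 310, 263 and 263 CPM in the untreated and 388, 404 and 452 CPM in the treated libraries. The treated libraries were all above the untreated ones, and Klf4 rose by log2 0.57 (SE 0.101, edgeR adjusted p = 0.000151). Tfcp2l1, a STAT3 target, had 1252, 1280 and 1223 CPM before and 1600, 1637 and 1673 CPM after auxin. It too showed no overlap and rose by log2 0.39 (SE 0.0686, edgeR adjusted p = 0.000153). Zfp42 moved the other way, from 591, 691 and 683 to 460, 513 and 526 CPM, again without overlap. It fell by 0.39 on the log2 scale (SE 0.0729, edgeR adjusted p = 0.000268).

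Esrrb and Nr0b1 also fell in TIR1 cells, by 0.15 and 0.36 on the log2 scale (edgeR adjusted p = 0.0384 and 0.0254). The Esrrb call was lost on leaving out any of the 6 libraries (edgeR adjusted p from 0.0576 to 0.205). It was also lost in a fit of the compared groups alone (0.0565) and without the low-count filter (edgeR adjusted p = 0.334). The Nr0b1 call was lost without untreated replicate 1 (0.0505), untreated replicate 2 (0.155) or treated replicate 1 (edgeR adjusted p = 0.238). Prdm14 (log2 0.07), Klf2 (-0.0052), Klf5 (0.15), Tbx3 (-0.11) and Nanog (-0.16) did not pass the test. Nanog passed as lower with the compared groups alone (edgeR adjusted p = 0.0487). Untreated TIR1 libraries belong to the set numbered 1 to 21 and treated ones to the set numbered 25 to 45, so auxin and library set cannot be told apart in these changes.

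In the PDS5AB line 10 of 10 members fell after treatment, where 20.2% of all tested genes were lower and 25.8% higher. Every treated library was below every untreated library for all 10, which held for 23.2% of tested genes. The median log2 change of the members was -0.79, against 0.038 over all tested genes, and single values ran from -0.21 (Tfcp2l1) to -1.42 (Prdm14).

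Prdm14, the repressor of FGF signalling genes, went from 35.7, 41.1 and 39.8 CPM to 12.2, 15.3 and 16.1 CPM. All treated libraries lay below the lowest untreated one, and the 2.68-fold decrease (log2 -1.42, SE 0.0828, edgeR adjusted p = 4.84e-14) was the largest of the group. Zfp42 went from 626, 742 and 705 to 258, 285 and 302 CPM. That decrease was 2.45-fold (log2 -1.3, SE 0.0741, edgeR adjusted p = 3.47e-14). For Nr0b1, the orphan nuclear receptor, the libraries read 107, 94.5 and 89.6 CPM before and 53.6, 44.6 and 39.8 CPM after treatment, a 2.11-fold decrease (log2 -1.08, edgeR adjusted p = 9.76e-09). Replicate 1 was the highest in both groups.

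The remaining members fell by less. The Krüppel-like factors Klf4, Klf2 and Klf5 had log2 changes of -0.86, -0.77 and -0.61 (edgeR adjusted p = 6.53e-08, 3.45e-07 and 8.28e-09). Esrrb, the estrogen-related receptor of the naive network, went from 787, 730 and 726 to 435, 423 and 419 CPM (log2 -0.81, edgeR adjusted p = 2.9e-13), with tight replicates in both groups. Nanog, the homeodomain factor, read 1042, 1284 and 1262 CPM before and 627, 757 and 784 CPM after treatment (log2 -0.73, edgeR adjusted p = 3.41e-08). In both groups replicate 1 was the lowest. Tbx3 had a log2 change of -0.42 (edgeR adjusted p = 4.53e-05). Tfcp2l1 moved least, from 1058, 1069 and 1051 to 930, 926 and 891 CPM (log2 -0.21, edgeR adjusted p = 0.0124), and this call was lost without treated replicate 3 (edgeR adjusted p = 0.0539).

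In the WAPL line 8 of the 10 members fell after treatment, where 15.8% of all tested genes were lower and 17% higher. The median log2 change of the members was -0.56, against 0.0044 over all tested genes. The 8 were Zfp42, Prdm14, Esrrb, Klf2, Klf4, Klf5, Tbx3 and Nanog, and in each of them the treated libraries lay below the untreated ones (19% of tested genes did so). Prdm14 went from 54.9, 51.9 and 51.4 to 22, 21.4 and 22.2 CPM (log2 -1.27, SE 0.0803, edgeR adjusted p = 3.97e-13). Klf4 went from 337, 389 and 330.7 to 153, 160 and 158 CPM (log2 -1.17, SE 0.103, edgeR adjusted p = 3.64e-10). For both genes the treated replicates were closer together than the untreated ones.

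Zfp42 fell to 312, 312 and 310 CPM from 587, 554 and 552 CPM (log2 -0.86, edgeR adjusted p = 2.07e-10). Tbx3, the T-box factor, went from 349, 334 and 341 to 185, 189 and 201 CPM (log2 -0.83, edgeR adjusted p = 1.12e-09). Klf5, Esrrb, Klf2 and Nanog had smaller log2 changes of -0.59, -0.52, -0.42 and -0.3 (edgeR adjusted p = 2.32e-08, 2.95e-09, 0.00171 and 0.00594). The members that did not pass were Tfcp2l1 and Nr0b1. Tfcp2l1 read 1263, 1471 and 1433 CPM before and 1234, 1552 and 1482 CPM after treatment (log2 0.035, SE 0.0685, edgeR adjusted p = 0.747). Its replicate 1 was the lowest in both groups. Nr0b1 read 82.7, 90.5 and 73.5 CPM before and 88.2, 66 and 69.7 CPM after (log2 -0.14, SE 0.114, edgeR adjusted p = 0.373), and its groups overlapped.

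In each combined line 8 members fell after treatment. No contrast set these effects against that of TIR1, in which Zfp42, Nr0b1 and Nanog had log2 changes of -0.39, -0.36 and -0.16, and no group given dTAG-13 alone was used here. In the PDS5AB-NIPBL line 8.06% of all tested genes were lower and 11.4% higher, and in the WAPL-NIPBL line 3.45% and 5.11%. The same 8 symbols were called in both lines, Zfp42, Prdm14, Esrrb, Klf4, Klf5, Tbx3, Nr0b1 and Nanog, leaving Klf2 and Tfcp2l1. Median log2 changes of the members were -0.5 and -0.45, against 0.0031 and 0.0063 over all tested genes. Prdm14 had the largest change in PDS5AB-NIPBL, from 48.3, 42.2 and 45.7 to 23.5, 20.9 and 23.2 CPM (log2 -1.01, SE 0.0815, edgeR adjusted p = 2.85e-10). In WAPL-NIPBL it went from 53.9, 53.5 and 56.4 to 31.5, 34.9 and 35.9 CPM (log2 -0.68, SE 0.0787, edgeR adjusted p = 5.98e-07).

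Zfp42 and Klf4 had log2 changes of -0.79 and -0.66 in PDS5AB-NIPBL (edgeR adjusted p = 4.07e-09 and 1.72e-05). In WAPL-NIPBL theirs were -0.66 and -0.67 (SE 0.0733 and 0.102, edgeR adjusted p = 3.32e-07 and 3.44e-05), which lay within 1 SE of that of Prdm14. Klf5 changed by about the same amount in all 4 degron lines. Its log2 change was -0.59 in WAPL, -0.62 in WAPL-NIPBL, -0.61 in PDS5AB and -0.6 in PDS5AB-NIPBL cells, each called. Tbx3 had log2 changes of -0.38 and -0.47 in the combined lines (edgeR adjusted p = 0.000528 and 0.000115), and Esrrb of -0.4 and -0.29 (edgeR adjusted p = 9.76e-07 and 0.000231).

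Nr0b1 fell in PDS5AB-NIPBL by 0.74 on the log2 scale, from 94.1, 105 and 97.3 to 54.9, 59.2 and 63.5 CPM (edgeR adjusted p = 2.11e-05). In WAPL-NIPBL it fell by 0.44 (edgeR adjusted p = 0.0142), a call lost without untreated replicate 1 (0.0872), untreated replicate 2 (0.057) or treated replicate 2 (edgeR adjusted p = 0.0737). Nanog also had calls that rested on single libraries. Its log2 changes were -0.25 and -0.27 (edgeR adjusted p = 0.0357 and 0.0411). In PDS5AB-NIPBL its groups overlapped, at 1104, 932 and 1139 CPM before and 870, 831 and 975 CPM after treatment. There the call was lost with the compared groups alone (0.0708) and without untreated replicate 1 (0.113), untreated replicate 3 (0.178), treated replicate 1 (0.115) or treated replicate 2 (edgeR adjusted p = 0.165). In WAPL-NIPBL it was lost without any of the 6 libraries (edgeR adjusted p from 0.0545 to 0.16). With replicate number as a block, both Nanog changes were called (edgeR adjusted p = 4.16e-06 and 2.18e-06), as were those of Nr0b1 (edgeR adjusted p = 3.32e-09 and 8.39e-05), in fits that called 32.1% and 20.9% of all tested genes.

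Klf2, a Krüppel-like factor whose protein is lost on ERK signalling, stood at 412, 324 and 356 CPM before and 367, 312 and 330 CPM after treatment in PDS5AB-NIPBL (log2 -0.11, edgeR adjusted p = 0.498). In WAPL-NIPBL it stood at 381, 350 and 375 CPM before and 392, 342 and 387 CPM after (log2 0.019, edgeR adjusted p = 0.949). The groups overlapped in both lines. Tfcp2l1 had log2 values of 0.15 and -0.037 (edgeR adjusted p = 0.141 and 0.825), and the first of these was called, as higher, with replicate number as a block (edgeR adjusted p = 0.00152).

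Counting across lines, 7 of the 10 members fell after treatment in all 4 degron lines (Zfp42, Prdm14, Esrrb, Klf4, Klf5, Tbx3 and Nanog). So did 395 of the 19868 tested genes (1.99%). Nr0b1 fell in 3 of these lines, Klf2 in 2 and Tfcp2l1 in 1. The counts do not take off the TIR1 effect, in which Zfp42, Esrrb and Nr0b1 were called lower as well. They also include the Nanog calls in the combined lines, which were lost on leaving out single libraries.

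**Figure D2:**
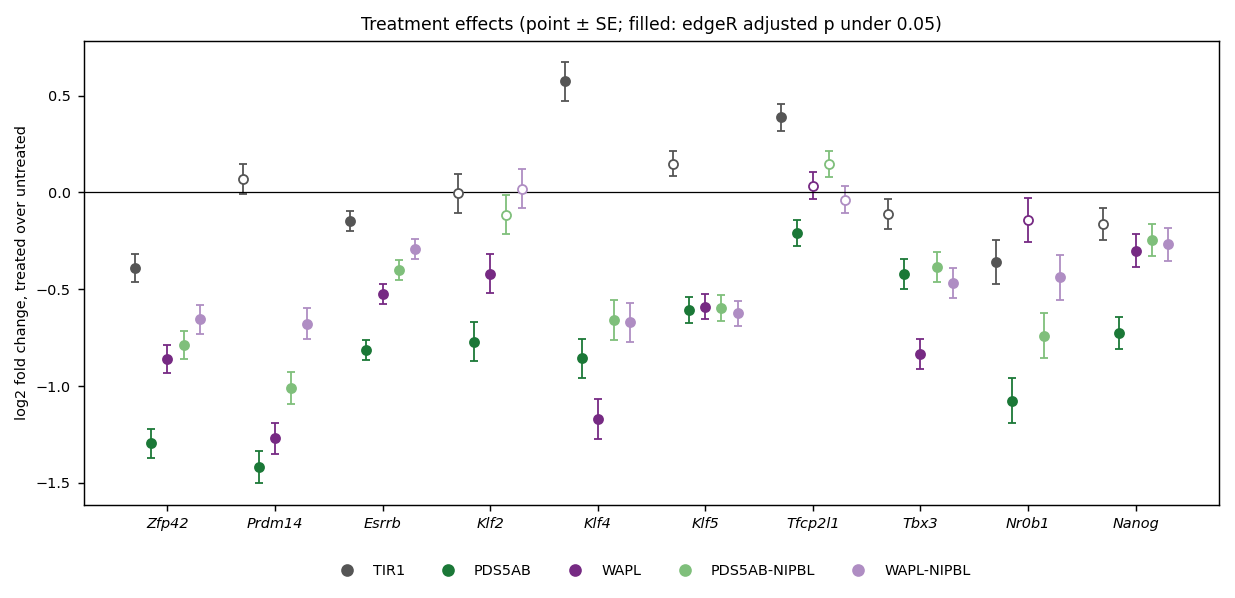
Log2 fold change of treated over untreated cells (y axis) for each gene (x axis) in the 5 lines, as point ± SE, with filled points at an edgeR adjusted p under 0.05. All PDS5AB points lie below 0, from -0.21 to -1.42, Klf5 sits near -0.6 in the 4 degron lines, and Klf4 and Tfcp2l1 lie above 0 in TIR1.

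The plot of treatment effects places the lines side by side, and differences between effects were tested as contrasts in the same model. Against the TIR1 effect, the PDS5AB effect was lower for 10 of 10 members, where 12.4% of all tested genes were lower and 13.9% higher. The differences ran from log2 -0.31 for Tbx3 (edgeR adjusted p = 0.0348) to -1.49 for Prdm14 (edgeR adjusted p = 2.36e-10). The Tbx3 difference was lost on leaving out any of 5 libraries, untreated PDS5AB replicate 1 (0.143), treated PDS5AB replicate 2 (0.114), untreated TIR1 replicates 2 (0.0773) and 3 (0.0559) and treated TIR1 replicate 3 (edgeR adjusted p = 0.102). A fit of the compared groups alone lost it too (edgeR adjusted p = 0.0842). The WAPL effect was lower than the TIR1 effect for 8 members (10.9% of all tested genes lower, 9.86% higher). It differed most for Klf4, by -1.74, where TIR1 cells showed an increase (edgeR adjusted p = 3.89e-10). Nr0b1 (log2 0.22, edgeR adjusted p = 0.373) and Nanog (-0.14, edgeR adjusted p = 0.449) did not pass. With replicate number as a block Nanog was called (edgeR adjusted p = 0.0384), in a fit that called 35.4% of all tested genes. That fit blocked both lines by number, although TIR1 libraries share a number only. The Tfcp2l1 difference of -0.35 was lost with the compared groups alone (edgeR adjusted p = 0.0525). The Klf2 difference of -0.41 (edgeR adjusted p = 0.0379) was lost on leaving out any library of the 4 groups other than untreated TIR1 replicate 1, untreated WAPL replicate 2 and treated WAPL replicate 1 (edgeR adjusted p from 0.0513 to 0.104). All of these differences contain the TIR1 effect, which crosses the library sets.

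The PDS5AB and WAPL effects, each measured within a set, differed for 5 members, where 5.11% of all tested genes were lower and 7.38% higher in PDS5AB. Zfp42 (log2 -0.44), Esrrb (-0.29), Nr0b1 (-0.93) and Nanog (-0.43) had lower effects in PDS5AB (edgeR adjusted p = 0.00433, 0.00639, 0.00019 and 0.0147). Tbx3 had the lower effect in WAPL, with a difference of 0.41 (edgeR adjusted p = 0.0106). The Tbx3 difference was lost without treated PDS5AB replicate 1 (0.0783) and the Nanog difference without untreated PDS5AB replicate 2 (edgeR adjusted p = 0.0532). With the compared groups alone the differences of Esrrb (0.0504) and Tbx3 (edgeR adjusted p = 0.0902) were lost. Nr0b1 showed the widest gap between the cofactors. With replicate number as a block 8 members differed (27.3% of all tested genes), with Klf2 (log2 -0.34) and Tfcp2l1 (-0.24) added as lower in PDS5AB and Klf4 (0.31) as higher (edgeR adjusted p = 0.000166, 0.0004 and 0.00351). Klf2 was also called without treated PDS5AB replicate 1 (0.0334) or treated WAPL replicate 2 (0.0287) or with no filter (0.0105), and Tfcp2l1 without treated WAPL replicate 1 (edgeR adjusted p = 0.00575). Prdm14 (-0.15, SE 0.114) and Klf5 (-0.016, SE 0.0914) were not called in either fit.

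Decreases were smaller in the PDS5AB-NIPBL than in the PDS5AB line for several members. The PDS5AB-NIPBL effect lay above the PDS5AB effect for 6 members, where 4.97% of all tested genes were higher and 4.48% lower, and none lay below. The differences were log2 0.66 for Klf2, 0.51 for Zfp42, 0.48 for Nanog, 0.41 for Esrrb, 0.41 for Prdm14 and 0.36 for Tfcp2l1 (edgeR adjusted p = 0.00329, 0.00177, 0.00861, 0.000364, 0.0219 and 0.017). Those of Klf4 (0.2, SE 0.144), Klf5 (0.010, SE 0.0917), Tbx3 (0.039, SE 0.109) and Nr0b1 (0.34, SE 0.163) did not pass. Nr0b1 was called with replicate number as a block (edgeR adjusted p = 0.0172), in a fit that called 24.4% of all tested genes. The Prdm14 difference was lost without treated PDS5AB replicate 1 (0.0577), untreated PDS5AB replicate 2 (0.0693) or untreated PDS5AB-NIPBL replicate 2 (edgeR adjusted p = 0.0574). A fit of the compared groups alone lost it too (edgeR adjusted p = 0.0805). The Tfcp2l1 difference was lost without untreated PDS5AB-NIPBL replicate 1 (0.0539) or treated replicate 3 of that line (edgeR adjusted p = 0.0551). Each of the 2 effects was measured within its own library set.

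The WAPL-NIPBL effect lay above the WAPL effect for 3 members, where 3.03% of all tested genes were higher and 2.16% lower. These were Prdm14 (log2 0.59, edgeR adjusted p = 0.00114), Klf4 (0.5, edgeR adjusted p = 0.0376) and Tbx3 (0.36, edgeR adjusted p = 0.0469). The Prdm14 difference held without each library in turn. That of Tbx3 was lost on leaving out any of the 12 libraries (edgeR adjusted p from 0.0633 to 0.128), and that of Klf4 on leaving out any but untreated WAPL replicate 3, untreated WAPL-NIPBL replicate 2 and treated WAPL-NIPBL replicate 1 (edgeR adjusted p from 0.0582 to 0.171). Klf4 was also lost with the compared groups alone (0.101) and Tbx3 with RLE size factors (edgeR adjusted p = 0.0589). Without treated WAPL replicate 1, Esrrb and Klf2 were called as well (edgeR adjusted p = 0.0233 and 0.0155). Klf2 was called with no filter (edgeR adjusted p = 0.00278) and Esrrb with DESeq2 (adjusted p = 0.0143). With the block 6 members differed (15.5% of all tested genes), adding Zfp42 (0.2), Esrrb (0.23) and Klf2 (0.44) at edgeR adjusted p = 0.0115, 0.00134 and 9.32e-06. Nanog (0.032, SE 0.118), Klf5 (-0.033, SE 0.0913), Tfcp2l1 (-0.072, SE 0.0968) and Nr0b1 (-0.3, SE 0.163) were not called in either fit.

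**Figure D3:**
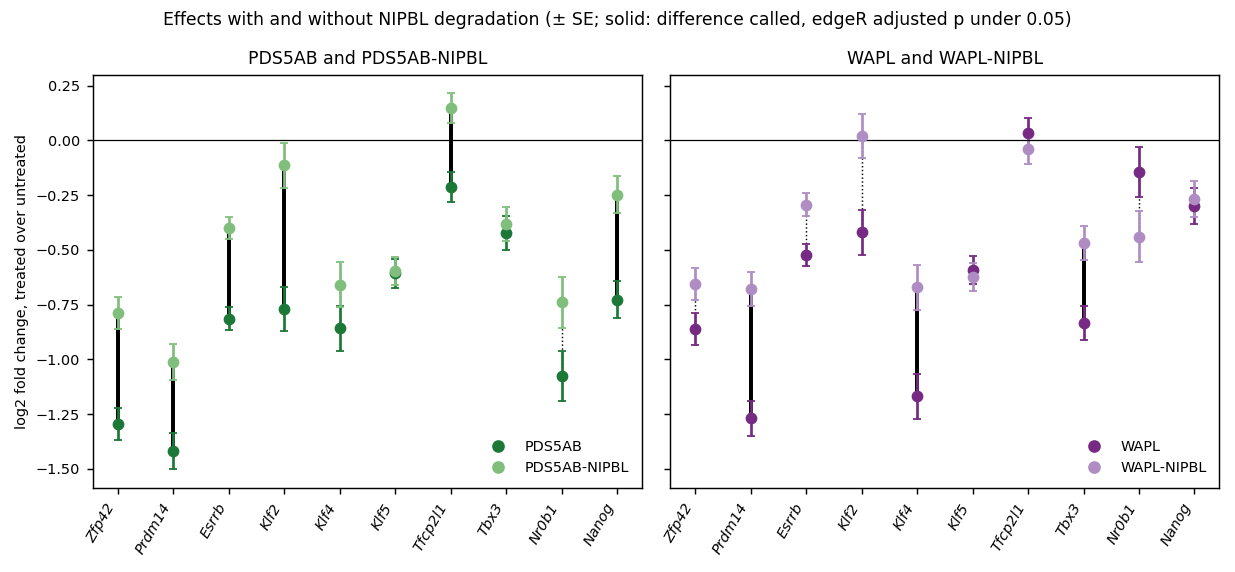
Treatment effects (log2 fold change ± SE, y axis) of each gene (x axis) without (dark) and with (light) NIPBL degradation, for the PDS5AB lines (left) and WAPL lines (right), joined by a solid line where the difference was called by edgeR. Solid lines join 6 genes on the left and 3 on the right, and the light points lie above the dark ones in all 9.

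The plot pairing each effect with its NIPBL counterpart shows Klf5 nearly fixed in both panels. Between the PDS5AB-NIPBL and WAPL-NIPBL effects edgeR called 0 of the members (0.362% of all tested genes in either direction), DESeq2 also called 0, and 1 (Prdm14) had an unadjusted p under 0.05. The count over all genes behind that share was 72, and it was 28 to 56 on leaving out 1 library, 155 with DESeq2 and 163 with no filter. The differences ran from log2 -0.33 (Prdm14) to 0.18 (Tfcp2l1). With the block these 2 genes were called (edgeR adjusted p = 0.0116 and 0.0289), in a fit that called 4.06% of all tested genes.

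Untreated levels already differed between lines. In untreated PDS5AB cells 5 members were lower and 2 higher than in untreated TIR1 cells, a comparison within the set numbered 1 to 21 in which 16.5% of all tested genes were lower and 15.5% higher. Klf4 read 218, 173 and 200 CPM, below all TIR1 libraries (log2 -0.5, edgeR adjusted p = 0.000247). Prdm14 (-0.41) and Tfcp2l1 (-0.24) were lower in every library (edgeR adjusted p = 0.00011 and 0.00682). Esrrb (-0.18) and Klf5 (-0.22) were lower, and Nr0b1 (0.33) and Nanog (0.23) were higher (edgeR adjusted p = 0.00729, 0.00832, 0.0246 and 0.0312). Esrrb lost its call without untreated PDS5AB replicate 3 (edgeR adjusted p = 0.0513). Klf5 did so without untreated TIR1 replicate 1 (0.0511) or untreated PDS5AB replicate 2 (edgeR adjusted p = 0.0733). For Nr0b1 the call rested on each of 3 libraries (untreated PDS5AB replicate 1 and untreated TIR1 replicates 1 and 3, edgeR adjusted p from 0.0962 to 0.124). For Nanog it rested on each of 4 (untreated TIR1 replicates 1 and 3 and untreated PDS5AB replicates 2 and 3, edgeR adjusted p from 0.0509 to 0.164). With the compared groups alone Esrrb, Klf5 and Nanog were lost (edgeR adjusted p = 0.0937, 0.063 and 0.0507), and with no filter Esrrb and Klf5 (edgeR adjusted p = 0.155 and 0.0669).

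The remaining untreated lines, each with 3 members called against untreated TIR1, belong to the set numbered 25 to 45, so their differences from untreated TIR1 cannot be told apart from the set. Klf4 was higher in all of them, by log2 0.34 in WAPL (14% of all tested genes called in either direction), 0.54 in WAPL-NIPBL (28%) and 0.58 in PDS5AB-NIPBL cells (34.3%), with edgeR adjusted p = 0.0235, 0.000187 and 4.82e-05. Without untreated TIR1 replicate 2 or 3 or untreated WAPL replicate 2 the WAPL value was not called (edgeR adjusted p from 0.102 to 0.15). Over all genes 2785 were called in that comparison, but 1599 when replicate 2 of the untreated WAPL group was left out and 1621 when replicate 2 of the untreated TIR1 group was. Zfp42 was lower in WAPL-NIPBL cells (log2 -0.33, edgeR adjusted p = 0.00089) and in WAPL cells (-0.22, edgeR adjusted p = 0.0454), the latter lost on leaving out any library but untreated TIR1 replicate 1 (edgeR adjusted p from 0.0503 to 0.201). Tfcp2l1 was higher in WAPL-NIPBL cells by 0.23 (edgeR adjusted p = 0.0115). Nr0b1 was higher in PDS5AB-NIPBL cells by 0.36 (edgeR adjusted p = 0.0143), which was lost without untreated TIR1 replicate 3 (0.0665) or untreated PDS5AB-NIPBL replicate 2 (edgeR adjusted p = 0.0583). Klf5 in WAPL cells (0.2) and Esrrb in PDS5AB-NIPBL cells (0.13) were called at edgeR adjusted p = 0.0308 and 0.0428. Klf5 was lost on leaving out replicate 2 or 3 of either group (edgeR adjusted p from 0.0709 to 0.12) and Esrrb on leaving out any of the 6 (edgeR adjusted p from 0.0524 to 0.12). With the compared groups alone the calls of Zfp42 and Klf5 in WAPL cells and Esrrb in PDS5AB-NIPBL cells were lost (edgeR adjusted p = 0.0787, 0.0568 and 0.129), as they were with no filter (edgeR adjusted p = 0.0606, 0.0769 and 0.149). Esrrb was also lost with RLE size factors (edgeR adjusted p = 0.0509). Leaving out a library added calls for Tfcp2l1 in WAPL cells (without untreated WAPL replicate 1, 0.0409) and in PDS5AB-NIPBL cells (without its untreated replicate 1, 0.0192), and for Klf5 in WAPL-NIPBL cells (without untreated TIR1 replicate 1, edgeR adjusted p = 0.032).

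**Figure D4:**
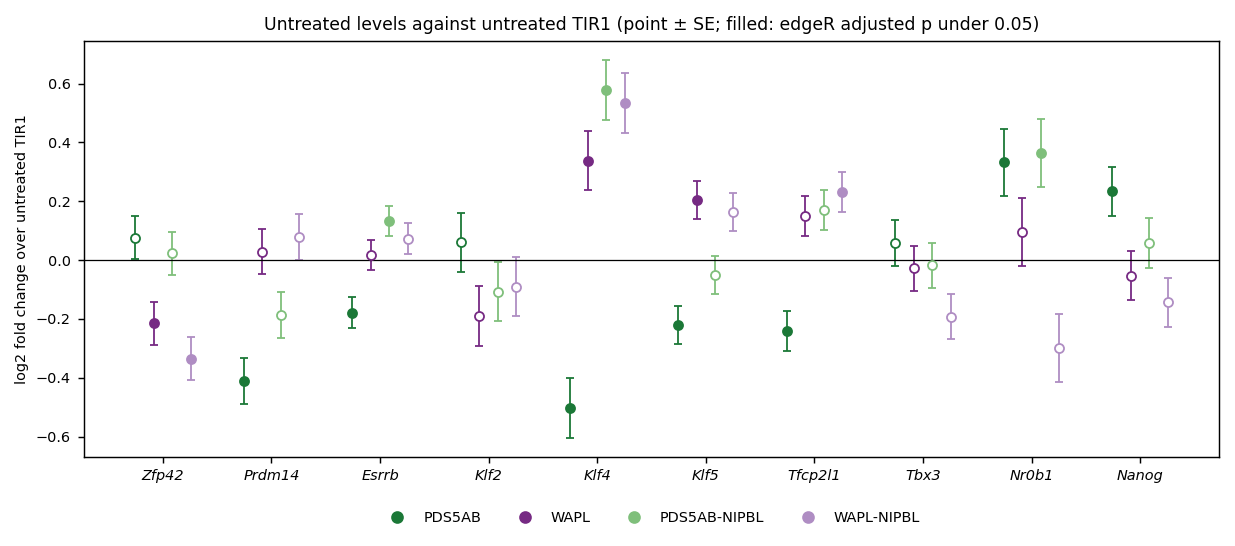
Log2 fold change of each untreated degron line over untreated TIR1 cells (y axis, point ± SE) for each gene (x axis), with filled points at an edgeR adjusted p under 0.05. Klf4 is the member with values furthest from 0, at -0.5 in PDS5AB and 0.34 to 0.58 in the other 3 lines.

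As the plot of untreated levels shows, Klf4 differed most between lines. Untreated PDS5AB-NIPBL cells had 2.12 times the Klf4 of untreated PDS5AB cells, with 408, 437 and 404 CPM (log2 1.08, edgeR adjusted p = 2.24e-09). In that comparison, which crosses the sets, 32.7% of all tested genes were called, and Tfcp2l1 (log2 0.41), Esrrb (0.31), Prdm14 (0.23) and Klf5 (0.17) were higher too (edgeR adjusted p = 3.09e-05, 2.46e-05, 0.0268 and 0.0409). The Prdm14 call was lost without untreated PDS5AB replicate 1 or untreated PDS5AB-NIPBL replicate 1 or 3 (edgeR adjusted p from 0.0506 to 0.129). The Klf5 call was lost without untreated PDS5AB replicate 2 or 3 or untreated PDS5AB-NIPBL replicate 1 or 2 (edgeR adjusted p from 0.0595 to 0.213), and Nanog was called, as lower, without untreated PDS5AB replicate 1 (edgeR adjusted p = 0.0187). Prdm14 and Klf5 were also lost with the compared groups alone (edgeR adjusted p = 0.0879 and 0.153) and with no filter (edgeR adjusted p = 0.0916 and 0.149), and Klf5 with RLE size factors (edgeR adjusted p = 0.0501). Untreated WAPL-NIPBL and WAPL cells share a library set, and edgeR called 10.7% of all tested genes between them. Among the members only Nr0b1 differed, at 66.7, 63.6 and 57.3 against 82.7, 90.5 and 73.5 CPM (log2 -0.4, edgeR adjusted p = 0.0225). Leaving out untreated WAPL replicate 1 or 2 or untreated WAPL-NIPBL replicate 2 or 3 ended the call (edgeR adjusted p from 0.0572 to 0.129).

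Other genes of the naive state also mostly fell where they were called in the degron lines. For the lists that follow, the shares of all tested genes that were lower and higher were 9.59% and 10.4% in TIR1, 20.2% and 25.8% in PDS5AB, 15.8% and 17% in WAPL, 8.06% and 11.4% in PDS5AB-NIPBL and 3.45% and 5.11% in WAPL-NIPBL cells. With replicate number as a block, which pairs libraries in the degron lines, the share called in either direction was 56.6% (PDS5AB), 45.1% (WAPL), 32.1% (PDS5AB-NIPBL) and 20.9% (WAPL-NIPBL), and list counts from that fit are given where the number called differs by over 1.5 times. Of 9 further markers, 1 fell and 2 rose in TIR1, 6 fell and 1 rose in PDS5AB, 5 fell in WAPL, 4 fell and 1 rose in PDS5AB-NIPBL, and 2 fell in WAPL-NIPBL cells. With the block 7 fell and 2 rose in PDS5AB-NIPBL and 5 fell and 1 rose in WAPL-NIPBL cells. The list medians in the degron lines were log2 -0.65, -0.35, -0.46 and -0.16, beside 0.038, 0.0044, 0.0031 and 0.0063 over all tested genes. Tcl1, an AKT coactivator, had log2 changes of -1.48 in PDS5AB and -0.87 in WAPL cells (edgeR adjusted p = 1.88e-13 and 6.18e-09), and of -0.44 in TIR1 cells (edgeR adjusted p = 0.000559). Sox15 fell by 1.34 on the log2 scale in WAPL cells (edgeR adjusted p = 8.15e-09). Dppa3, a maternal factor also expressed in naive cells, rose by log2 1.51 in TIR1 cells (edgeR adjusted p = 1.43e-06) and fell by 0.77 in WAPL cells (edgeR adjusted p = 0.0044). Pecam1, an adhesion molecule, rose by 0.62 in PDS5AB cells (edgeR adjusted p = 3.88e-08).

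Of 7 core pluripotency genes all fell in PDS5AB cells, 4 fell and 1 rose in WAPL, 6 fell in PDS5AB-NIPBL, 3 in WAPL-NIPBL (6 with the block) and 4 in TIR1 cells. Sox2, the partner of POU5F1, went from 340 ± 23.2 to 137 ± 14.4 CPM in PDS5AB cells (SD, n = 3; log2 -1.29, edgeR adjusted p = 1.49e-13). In WAPL cells it went from 446 ± 23.1 to 220 ± 16.7 CPM (log2 -1.02, edgeR adjusted p = 2.15e-11). Its log2 changes were -0.48 and -0.37 in PDS5AB-NIPBL and WAPL-NIPBL cells (edgeR adjusted p = 3.34e-05 and 0.00196) and 0.11, not called, in TIR1 cells. Pou5f1 fell by 0.65, 0.39, 0.45 and 0.28 in the same order of lines (edgeR adjusted p = 2.96e-08, 0.000114, 4.38e-05 and 0.0135). Utf1, a chromatin factor, had log2 changes between -2.02 and -2.48 in the degron lines and of -1.88 in TIR1 cells (edgeR adjusted p = 1.5e-07).

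The LIF-STAT3 and FGF-ERK arms showed mixed directions. Of 9 LIF-STAT3 genes 1 fell and 3 rose in TIR1 cells, 4 fell and 3 rose in PDS5AB cells, 2 fell and 2 rose in WAPL cells, and 1 fell and 1 rose in each combined line. With the block 4 fell and 3 rose in WAPL, 2 fell and 2 rose in PDS5AB-NIPBL, and 3 fell and 2 rose in WAPL-NIPBL cells. Pim3, a STAT3-responsive kinase, had log2 values from -0.43 to -0.66 in the degron lines and -0.31 in TIR1 cells. Of 10 FGF-ERK genes 2 fell and 1 rose in TIR1, 4 fell and 4 rose in PDS5AB, 5 fell and 2 rose in WAPL, 4 fell and 2 rose in PDS5AB-NIPBL, and 3 fell and 1 rose in WAPL-NIPBL cells. Dusp6, an ERK phosphatase and ERK target, went from 12 ± 3.44 to 2.33 ± 0.999 CPM in PDS5AB cells (SD, n = 3; log2 -2.36, edgeR adjusted p = 8.54e-10). It also fell in TIR1 cells, by 0.88 on the log2 scale (edgeR adjusted p = 0.00218). Egr1, an immediate early gene induced by ERK, rose in PDS5AB cells (log2 1.96, edgeR adjusted p = 2.92e-07) and was not called in the other 4 lines. Its log2 values there included 0.83 in TIR1 and 0.64 in WAPL cells (SE 0.356 and 0.307). Whether the Egr1 change differed between lines was not tested. Fgfr2, an FGF receptor, rose by 1.12 in PDS5AB and 1.02 in WAPL cells (edgeR adjusted p = 2.47e-06 and 2.53e-05).

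Of 7 Wnt-GSK3 genes 5 rose in TIR1, 4 in WAPL, 3 in PDS5AB, 2 in WAPL-NIPBL (4 with the block) and 3 in PDS5AB-NIPBL cells, and 1 fell, in PDS5AB. Lef1, a transcription factor of the pathway, had log2 changes of 2.09 in TIR1 and 2.14 in WAPL cells (edgeR adjusted p = 2.47e-07 and 2.6e-10) and of -0.040 in PDS5AB cells. Sp5, a Wnt target, rose in all 5 lines, by log2 1.56 in TIR1 and 1.38, 1.19, 0.83 and 0.64 in PDS5AB, WAPL, PDS5AB-NIPBL and WAPL-NIPBL cells. Of 8 genes of the machinery of exit from the naive state, a list that holds both drivers of exit and Tfe3, a factor that sustains the state while nuclear, 1 fell and 3 rose in TIR1, 4 fell and 1 rose in PDS5AB, 3 fell in WAPL, 1 fell and 1 rose in PDS5AB-NIPBL, and 1 fell in WAPL-NIPBL cells. With the block 5 fell and 2 rose in WAPL, and 5 fell and 1 rose in each combined line. Zfp281 and Tfe3 both had a log2 change of -0.5 in PDS5AB cells (SE 0.0794 and 0.0921, edgeR adjusted p = 5.71e-06 and 5e-05). Of 8 formative epiblast genes, the state that follows, 5 fell in TIR1, 3 fell and 2 rose in PDS5AB, 4 fell and 1 rose in WAPL, and 3 fell in each combined line (5 in each with the block). Otx2, its leading factor, had log2 changes between -0.98 and -1.28 in the degron lines and of -1.19 in TIR1 cells (edgeR adjusted p = 0.000335).

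Markers of other cell types moved with the treatments as well, in TIR1 cells too, where the comparison crosses the library sets. Of 8 primitive endoderm markers 2 rose in TIR1 cells (Pdgfra by log2 1.18 and Lama1 by 0.33), 4 rose and 1 fell in PDS5AB, 5 rose and 1 fell in WAPL, and 3 rose in each combined line. Their summed level was 137 to 149 CPM in untreated and 137 to 166 CPM in treated PDS5AB libraries. In WAPL it was lower in every treated library, at 227 to 276 CPM before and 191 to 212 CPM after treatment. Lama1, a laminin chain, made up most of the sum in every group and was the marker that fell. It went from 117 ± 4.75 to 84.1 ± 8.55 CPM in PDS5AB and from 234 ± 27.6 to 158 ± 17.9 CPM in WAPL cells (SD, n = 3; log2 -0.45 and -0.56, edgeR adjusted p = 4.17e-05 and 2.94e-06). The sum of the other 7 markers went from between 24.6 and 27.6 to between 58.6 and 72.6 CPM in PDS5AB libraries and from between 10.4 and 13.3 to between 37.9 and 53.5 CPM in WAPL libraries. In TIR1 libraries that sum was 7.76 to 8.66 CPM before and 10.2 to 11.2 CPM after treatment. In the combined lines it went from 10.4 to 13.2 up to 30.1 to 36.4 CPM (PDS5AB-NIPBL) and from 5.81 to 6.16 up to 14.3 to 15.6 CPM (WAPL-NIPBL). The endocytic adaptor Dab2 rose from 11.6 ± 1.21 to 38.6 ± 5.37 CPM in PDS5AB and from 7.03 ± 1.64 to 35.3 ± 7.4 CPM in WAPL cells (SD, n = 3; edgeR adjusted p = 7.01e-10 and 1.22e-11). Of 6 genes of the 2-cell-like state 4 rose in PDS5AB and 4 in WAPL cells. Their sum went from 19.1 to 27.6 up to 45.1 to 61.2 CPM in PDS5AB and from 1.2 to 2.67 up to 7.16 to 9.37 CPM in WAPL libraries, and was at most 2.41 CPM in TIR1 and 0.961 CPM in the combined lines. There Zscan4d went from 0.0144 ± 0.025 to 0.148 ± 0.104 CPM in PDS5AB-NIPBL and from 0.098 ± 0.0695 to 0.343 ± 0.109 CPM in WAPL-NIPBL (SD, n = 3), not called without the block (edgeR adjusted p = 0.0504 and 0.067) and called as higher with it (edgeR adjusted p = 0.0181 and 0.0156). The other 5 were called in neither edgeR fit of the combined lines. In untreated PDS5AB-NIPBL cells 3 of the 6 were at 0.

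Of 7 trophoblast markers, 6 of them tested, 2 rose in TIR1 cells, Cdx2 by log2 2.78 and Tfap2c by 0.64, where sums were 99.9 to 107 CPM before and 149 to 153 CPM after treatment. Of the same markers 2 rose and 2 fell in PDS5AB and 2 rose and 1 fell in WAPL cells, with sums of 83.5 to 106 and 111 to 140 CPM in PDS5AB and 88.7 to 105 and 40.1 to 46.1 CPM in WAPL. In PDS5AB-NIPBL 3 rose and 2 fell (sums of 87.7 to 100 and 69.7 to 80.2 CPM), and in WAPL-NIPBL 1 rose and 1 fell (77 to 85.4 and 53.5 to 57.7 CPM). Of 6 primitive streak and mesoderm markers 2 rose in TIR1 (T by log2 2.02 and Wnt3 by 1.49), 2 rose and 1 fell in PDS5AB, 3 rose in WAPL, 2 rose and 1 fell in PDS5AB-NIPBL and 2 rose in WAPL-NIPBL cells. Their sums were at most 33.8 CPM in any library. Neural progenitor markers, 3 of 5 tested, summed to at most 127 CPM, nearly all of it Nes, with 1 risen and 1 fallen in PDS5AB, WAPL and PDS5AB-NIPBL cells and 1 fallen in WAPL-NIPBL (with the block, 1 risen as well) and in TIR1. Fibroblast markers, 5 of 6 tested, summed to at most 28.2 CPM, with 3 risen in PDS5AB, 2 risen and 3 fallen in WAPL, 1 risen and 1 fallen in PDS5AB-NIPBL (3 and 2 with the block) and 1 fallen in WAPL-NIPBL and in TIR1 cells. The part of these shifts in the changes of the members was not tested.

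Across the 10 group means of log2 CPM, which share lines, the library sets and 1 normalisation, Pearson's r between members was positive for 44 of the 45 pairs (97.8%), with a median of 0.641. Over all pairs of the tested genes r was positive for 50.1%, with a median of 0.00095. The closest pairs were Zfp42 with Nanog (r = 0.954) and Prdm14 with Klf5 (r = 0.946). For Tfcp2l1 r ran from -0.153 with Tbx3, 0.0181 with Nr0b1, 0.0289 with Nanog and 0.0946 with Zfp42 to 0.585 with Esrrb and 0.738 with Klf4. Among 11921 further genes averaging 50 counts or more, predicted-gene and Riken-clone names left out, the profile most like Zfp42 was its pseudogene Zfp42-ps1 (r = 0.996). The others were Nufip1 for Prdm14 (r = 0.995), Hnrnpf for Esrrb (0.985), Rcc1l for Klf2 (0.977), Zc3h13 for Klf4 (0.98), Dcaf1 for Klf5 (0.967), Dnajc13 for Tfcp2l1 (0.975), Psmd2 for Tbx3 (0.961), Vegfc for Nr0b1 (0.943) and Cmss1 for Nanog (0.985). Each r was the highest of the 11921 over 10 points.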

How the data were processed

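Stranded polyA RNA-seq of 30 libraries was analysed. Raw fragment counts per gene were deposited by the authors. Per the submitters' processing notes, cutadapt, STAR 2.7.7a and featureCounts 2.0.1 were used with GRCm38.p6 and mm10 named as builds, and per the file headers strand was ignored and multi-mapping reads were not counted, which affects genes with near copies or antisense partners. The 10 genes and all gene lists were chosen with earlier results of these data known.

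From the counts, genes passing filterByExpr (minimum count 10) were fitted in edgeR 4.0.16 (R 4.3.3) with TMM scaling (factors 0.95 to 1.13), 1 mean per group over all 30 libraries and 20 residual degrees of freedom. Each of 17 contrasts was tested by quasi-likelihood with Benjamini-Hochberg adjustment. The common biological coefficient of variation was 9.15%, and replicates correlated at r of 0.987 or more. Levels are TMM-scaled CPM. The fit was also run on simulated counts, with known changes in the WAPL contrast only. These had the same dispersion for every gene, no pairing and no library-set effect, so that run does not bear on such features of the real data. From each gene list, the called gene with the largest change in each direction per effect could be named. Other genes were named after their values were seen. No 2 libraries held identical counts. Symbols were found for 99.5% of gene IDs.

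Replicate numbers come from the sample titles. Same-numbered treated and untreated libraries deviated together in the 4 degron lines (12 pairs, r from 0.109 to 0.333), and not in TIR1. The main fit did not use this pairing, so p-values not marked as from the block are unpaired. The replicate block used it, and blocked TIR1 by number as well. Untreated WAPL and WAPL-NIPBL libraries also deviated together by number (3 pairs, r from 0.109 to 0.227). The alternatives were DESeq2 1.42.0, RLE size factors, no filter, the compared groups alone, a 2-fold minimum, leaving out each library and the replicate block.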

Additional observations from a re-analysis of the deposited data

Results flagged for a closer look

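These results were picked out because the effect of treatment differed between lines in a direct test of the difference (edgeR adjusted p under 0.05). Groups of 3 libraries are too small for a test of single outlying samples. Values are differences of log2 fold changes.

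The PDS5AB effect was lower than the TIR1 effect for Prdm14 (-1.49), Klf4 (-1.43), Zfp42 (-0.90), Klf2 (-0.76), Klf5 (-0.75), Nr0b1 (-0.72), Esrrb (-0.67), Tfcp2l1 (-0.60), Nanog (-0.56) and Tbx3 (-0.31). The WAPL effect was lower than the TIR1 effect for Klf4 (-1.74), Prdm14 (-1.34), Klf5 (-0.74), Tbx3 (-0.72), Zfp42 (-0.47), Klf2 (-0.41), Esrrb (-0.37) and Tfcp2l1 (-0.35). Library set and treatment cannot be told apart in the TIR1 effect that all of these contain.

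The PDS5AB effect was lower than the WAPL effect for Nr0b1 (-0.93), Zfp42 (-0.44), Nanog (-0.43) and Esrrb (-0.29) and higher for Tbx3 (0.41). The PDS5AB-NIPBL effect was higher than the PDS5AB effect for Klf2 (0.66), Zfp42 (0.51), Nanog (0.48), Esrrb (0.41), Prdm14 (0.41) and Tfcp2l1 (0.36). The WAPL-NIPBL effect was higher than the WAPL effect for Prdm14 (0.59), Klf4 (0.50) and Tbx3 (0.36).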

How the results depend on the processing

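No called change of a member reversed under any alternative run. With a 2-fold minimum the members called were 2 for PDS5AB loss, 1 for WAPL loss and 0 in TIR1 and both combined lines, 1 in the PDS5AB minus TIR1 difference, 2 in the WAPL minus TIR1 difference, and 0 in the other differences and in all comparisons of untreated lines. Over all genes this minimum left 44, 698, 424, 75 and 17 genes in the treatment effects of TIR1, PDS5AB, WAPL, PDS5AB-NIPBL and WAPL-NIPBL, 200 and 255 in the PDS5AB and WAPL differences from TIR1, 1 to 45 in the other differences, and 29 to 920 in the comparisons of untreated lines.

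With the replicate block the members called were 8 in TIR1 (35.6% of all tested genes), 8 for PDS5AB minus WAPL, 6 for WAPL-NIPBL minus WAPL and 2 for PDS5AB-NIPBL minus WAPL-NIPBL. They were 6 in untreated WAPL-NIPBL and 5 in untreated PDS5AB-NIPBL cells against TIR1, in fits that called 32.4% and 38.4% of all tested genes. In TIR1 (r from -0.0102 to 0.0574) the libraries share a number only. In comparisons of untreated lines the block was a shift per replicate number shared by all 30 libraries, not a pairing of the groups compared. Of the untreated lines compared, all 3 same-numbered pairs exceeded r of 0.1 in WAPL with WAPL-NIPBL (0.109 to 0.227), where the block called the same member, Nr0b1 (edgeR adjusted p = 0.0142). In TIR1 with PDS5AB (0.0709 to 0.207) not all same-numbered pairs exceeded 0.1, but all lay above the different-numbered ones, of which the highest was 0.0461. Libraries of the other untreated comparisons (-0.0808 to 0.0444) share a number only. Over all genes the block raised the count from 3962 to 7065 in TIR1, from 3874 to 6377 in PDS5AB-NIPBL, from 1702 to 4152 in WAPL-NIPBL and from 72 to 807 between the combined effects. In the differences it raised it from 5224 to 7983 (PDS5AB minus TIR1), 4122 to 7034 (WAPL minus TIR1), 1879 to 4847 (PDS5AB-NIPBL minus PDS5AB), 1032 to 3070 (WAPL-NIPBL minus WAPL) and 2481 to 5422 (PDS5AB minus WAPL).

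With the compared groups alone the members called were 3 for PDS5AB minus WAPL (9.41% of all genes tested), 4, 1 and 5 in untreated PDS5AB, WAPL and WAPL-NIPBL against TIR1 (29.5%, 14.6% and 32.1%), and 3 in untreated PDS5AB-NIPBL against PDS5AB (28%). With no filter they were 3 in the last of these (15.1%) and 1 in untreated WAPL against TIR1 (6.84%), and DESeq2 called 5 in untreated PDS5AB-NIPBL against TIR1 (34.4%). Leaving out 1 library gave 3 to 4 members in TIR1, 1 to 3 for WAPL-NIPBL minus WAPL, and 4 to 7, 0 to 3 and 1 to 3 in untreated PDS5AB, WAPL and PDS5AB-NIPBL against TIR1. It gave 3 to 5 in untreated PDS5AB-NIPBL against PDS5AB and 0 to 1 in untreated WAPL-NIPBL against WAPL. Over all genes the ranges for these comparisons, in the same order, were 2689 to 3362, 713 to 1126, 5459 to 6167, 1599 to 2641, 5474 to 6110, 5101 to 6126 and 1442 to 1764. The cause was not tested.

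Values that changed sign on leaving out 1 library were all of uncalled genes. In treatment effects they were Klf2 in TIR1 (-0.070 to 0.083, and 0.013 with no filter), Tfcp2l1 in WAPL (-0.018 to 0.14) and Klf2 in WAPL-NIPBL (-0.0095 to 0.087). Against untreated TIR1 they were Zfp42 (-0.00012 to 0.14), Klf2 (-0.063 to 0.12) and Tbx3 (-0.047 to 0.15) in PDS5AB, Tbx3 in WAPL (-0.052 to 0.014), and Zfp42 (-0.035 to 0.074) and Tbx3 (-0.050 to 0.022, and 0.0017 with no filter) in PDS5AB-NIPBL. Against untreated PDS5AB they were Zfp42 (-0.12 to 0.0045), Tbx3 (-0.17 to 0.030) and Nr0b1 (-0.015 to 0.11) in PDS5AB-NIPBL. In differences they were Klf5 (-0.044 to 0.087) and Tbx3 (-0.066 to 0.14) for PDS5AB-NIPBL minus PDS5AB, Nanog for WAPL-NIPBL minus WAPL (-0.0072 to 0.070) and Klf5 for PDS5AB minus WAPL (-0.11 to 0.038). Between the combined effects they were Klf4 (-0.14 to 0.10), Klf5 (-0.0078 to 0.075) and Nanog (-0.070 to 0.071). CPM on total counts moved 27 of 100 group levels by over 1 SD (from -3.87% to 12.8%), and RLE size factors moved 0 of 100.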
